A study of Mus musculus with 4 samples.

Results

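The genes that encode the constant parts of the immunoglobulins, together with Jchain, were followed in hippocampal RNA of mice after abdominal surgery. The gene table was searched by symbol for Igkc, Ighg2c, Ighg2b, Ighg1, Ighm, Igha and Jchain, and each symbol matched 1 row, which gave 7 of 31060 genes. These members were chosen by their raw counts in the same 4 libraries that are described here. Their difference between surgery and control is therefore given as a description without a test. The surgery group had 2 libraries from wild-type mice of 12 months on day 3 after exploratory laparotomy under sevoflurane. The control group had 2 libraries from wild-type mice of the same age that had no treatment and are labelled day 0. The study used C57BL/6 mice. Whether replicates of a group came from separate animals is not given, so p-values measure only the spread between these libraries, which may be technical.

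Antibodies are built from heavy and light chains, each made of a variable part that binds antigen and a constant part that sets the class. Naive B cells make the mu and delta heavy chains, and after class switching a B cell uses a gamma, alpha or epsilon constant gene in their place. Plasma cells secrete antibodies in large amounts, and in the brain such cells are known mainly from the meninges and the choroid plexus rather than from the parenchyma. The J chain is a small protein that joins secreted IgA and IgM into polymers.

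The kappa light chain gene Igkc lies on the plus strand of chromosome 6 of mm10 from 70726435 to 70726966. The heavy chain genes lie on the minus strand of chromosome 12. Igha runs from 113254830 to 113260236, Ighg2c from 113285325 to 113288932, Ighg2b from 113302965 to 113307933, Ighg1 from 113325240 to 113330523 and Ighm from 113418558 to 113422730. Jchain lies on the minus strand of chromosome 5 from 88519809 to 88527891. These positions are those of the gene table, and GENCODE vM21 gives the same ones. The end of the secreted heavy chain shows which classes can bind the J chain, and it is printed here because Igha, Ighm and Jchain are members of the same set. The last 57 bases of the coding sequence, stop codon included, are given 5′ to 3′ from GENCODE vM21 on GRCm38, with the cysteine codon of the tailpiece in capitals.
Igha-201: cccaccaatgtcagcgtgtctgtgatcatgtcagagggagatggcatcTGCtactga
Ighm-201: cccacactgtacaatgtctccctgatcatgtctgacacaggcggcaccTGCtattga
Ighg2c-202: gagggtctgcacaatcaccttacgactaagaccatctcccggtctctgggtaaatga
The alpha and mu chains both end with this cysteine codon and 1 codon before the stop, and it is the residue known to bond with the J chain. The gamma 2c chain has no cysteine codon at that place and no tailpiece of this kind.

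Of the 7 members, 5 were higher in both surgery libraries than in both controls, namely Igkc, Igha, Ighg2c, Ighg2b and Jchain. Ighm, the member with the most counts in every library, did not share this pattern, and Ighg1 was close to the limit of detection. In all genes tested, 20.3% had both surgery libraries above both controls and 22.3% had both below. The members were chosen on this contrast, so nothing is read from their 5 of 7. The 6 members other than Ighm, summed after their values were seen, had 359 and 463 counts in the surgery libraries, against 65 and 136 in control. As CPM, counts scaled for library size with TMM factors, they averaged 22.2 ± 5.04 (SD, n = 2) in surgery and 5.4 ± 2.76 (SD, n = 2) in control. This is a ratio of 4.12, which was 3.02 against control replicate 2 alone, while the log2 ratio of 2.04 was 2.69 without control replicate 2. The sum over all 7 members averaged 42.2 ± 1.16 CPM in surgery and 22.8 ± 2.41 CPM in control, a ratio of 1.85. The members took between 0.00207% and 0.00429% of the counts of a library, so that each value rests on few reads, and 7 of the 28 single values were under 10 counts. In whole tissue, more cells of a type and more RNA per cell cannot be told apart.

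**Figure D1:**
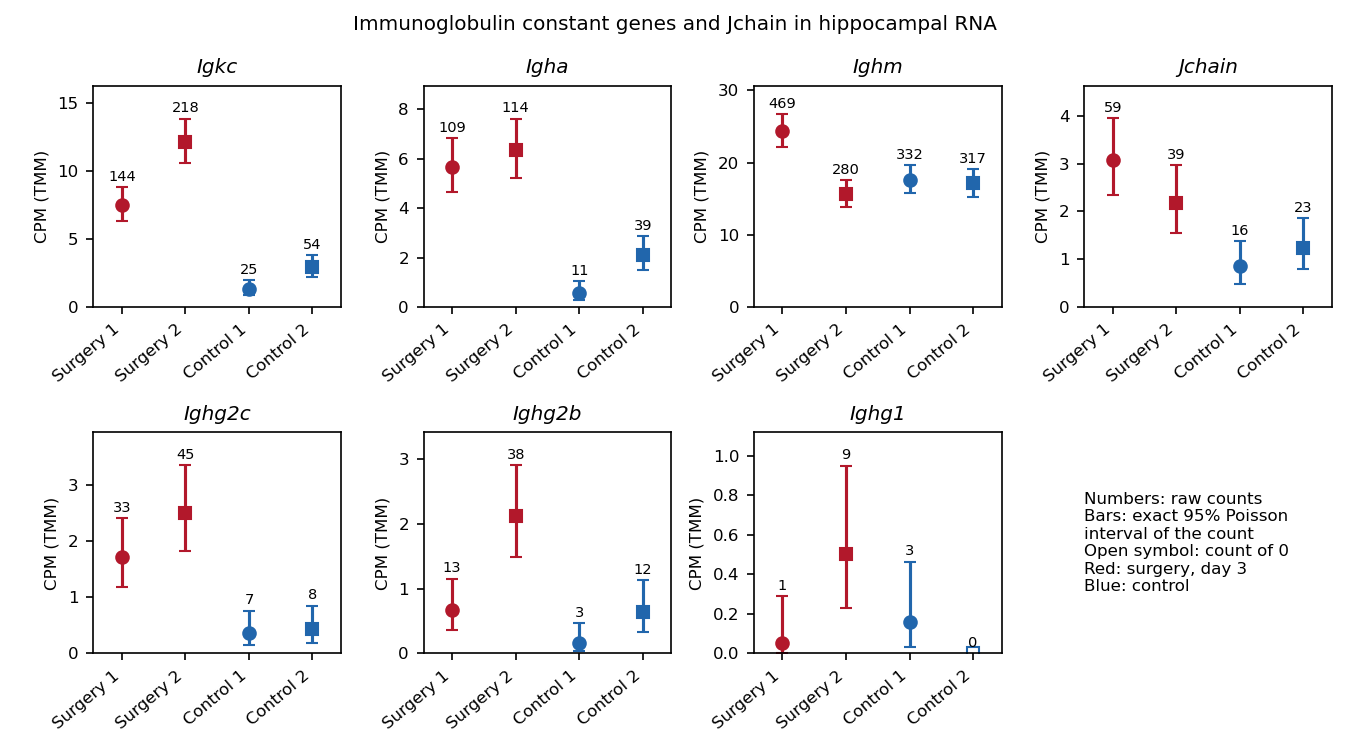
CPM of each of the 7 members (vertical axis, TMM-scaled) in the 2 surgery libraries (red) and the 2 control libraries (blue), with the raw count printed above each point and exact 95% Poisson intervals as bars. Igkc, Igha, Ighg2c, Ighg2b and Jchain had both surgery points above both control points, whereas Ighm and Ighg1 overlapped.

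Igkc encodes the constant part of the kappa light chain, which most mouse antibodies carry. It had 144 and 218 counts in the surgery libraries, against 25 and 54 in control. Surgery replicate 2 was the highest and control replicate 1 the lowest. Exact 95% Poisson intervals of the counts are drawn in the plot of members. They cover counting error only, as do all intervals given here, since reads were not counted by molecular identifiers. Igkc averaged 9.81 ± 3.29 CPM (SD, n = 2) in surgery and 2.12 ± 1.13 CPM (SD, n = 2) in control, a log2 ratio of 2.21. The log2 ratio was 2.89 without control replicate 2. Against control replicate 2 alone the surgery mean was 3.36-fold higher. A separate table of transcripts, whose library totals were 3.85 to 3.91 times those of the gene table, did not show this difference. It had 13 and 36 estimated counts of Igkc in surgery and 33 and 20 in control, which overlapped. A long noncoding RNA gene on the same strand, Gm30211, spans Igkc in GENCODE vM21 and was not analysed here.

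Igha encodes the heavy chain of IgA, the class of mucosal surfaces, which is secreted as a polymer with the J chain. It had 109 and 114 counts in the surgery libraries, against 11 and 39 in control. The surgery libraries were close to each other, while the controls lay apart by a factor of 3.61 in CPM. Igha averaged 6.01 ± 0.484 CPM in surgery and 1.35 ± 1.08 CPM in control (SD, n = 2 each), a log2 ratio of 2.16. It was 1.51 without control replicate 1 and 3.36 without control replicate 2, so that the size of the difference depended on which control was used. The transcript table had 25 and 377 estimated counts of Igha in surgery and 44 and 40 in control, which overlapped, with surgery replicate 1 the lowest.

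Jchain had 59 and 39 counts in the surgery libraries, against 16 and 23 in control. It averaged 2.62 ± 0.632 CPM in surgery and 1.05 ± 0.279 CPM in control (SD, n = 2 each), a log2 ratio of 1.32. The groups did not overlap. The order of the surgery libraries was turned round relative to Igkc, with surgery replicate 1 the higher one for Jchain, as it was for Ighm.

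The gamma members encode heavy chains of IgG, the main class of serum. Ighg2c encodes IgG2c, the form that C57BL/6 mice carry in place of the IgG2a of other strains. It had 33 and 45 counts in the surgery libraries, against 7 and 8 in control, and averaged 2.11 ± 0.560 CPM in surgery and 0.402 ± 0.0430 CPM in control (SD, n = 2 each). The log2 ratio was 2.39. The controls were alike for this gene, so that against control replicate 2 alone the surgery mean was still 4.88-fold higher. Ighg2b had 13 and 38 counts in surgery and 3 and 12 in control, with a log2 ratio of 1.79. Surgery replicate 1 stood at 0.675 CPM, only 1.04 times control replicate 2 at 0.648 CPM, and the log2 ratio was 0.74 without surgery replicate 2 and 3.13 without control replicate 2. Ighg1 had 1 and 9 counts in surgery and 3 and 0 in control, and the count of 0 allows up to 0.162 CPM. No ratio is given for Ighg1, since 3 of its 4 values were at or below 3 counts, and it was the 1 member that did not pass the filter on low counts. The gamma genes resemble each other, and of all windows of 50 bases in their GENCODE transcripts 5.49% of Ighg2c, 3.04% of Ighg2b and 0.393% of Ighg1 occurred in another member, against 0 for the other members. No window of 100 bases was shared. The read length and the way shared reads were counted are not given in the sources used here, so a few counts may have been lost or moved between the gamma genes.

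Ighm encodes the mu heavy chain of IgM, the class made before switching. It had 469 and 280 counts in the surgery libraries, against 332 and 317 in control. The surgery libraries lay on both sides of the controls, with surgery replicate 1 the highest of all and surgery replicate 2 the lowest. Ighm averaged 20.0 ± 6.21 CPM in surgery and 17.4 ± 0.344 CPM in control (SD, n = 2 each), a log2 ratio of 0.20 that was smaller than the spread between the surgery libraries and was -0.16 without surgery replicate 1. In the transcript table Ighm had 1510 and 1056 estimated counts in surgery and 938 and 41 in control, so that the value of control replicate 2 differed strongly between the tables. The forms with the secreted end, Ighm-201, and with the membrane end, Ighm-202, both had counts there in each library. Ighm-201 had 742 and 422 estimated counts in surgery and 455 and 17 in control. Ighm-202 had 768 and 634 in surgery and 483 and 24 in control.

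The share of the switched classes among the heavy chain counts differed between the libraries. Of the counts of the 5 heavy chain members, Igha, Ighg2c, Ighg2b and Ighg1 together made up 24.96% (Wilson 95% interval 21.7 to 28.5%) and 42.4% (38.1 to 46.8%) in the surgery libraries. In the control libraries they made up 6.74% (4.57 to 9.84%) and 15.7% (12.4 to 19.7%). The groups did not overlap in this share, but its genes were chosen on this contrast, so nothing is read from that. The libraries of each group differed from each other by more than their counting intervals. Within the switched classes, Igha took 69.9% and 55.3% of the counts in surgery and 45.8% and 66.1% in control, which overlapped. As FPKM, which corrects for the length of the gene as well as for depth, Igkc stood at 14.0 and 22.6 in surgery and at 2.45 and 5.64 in control. The sum of the switched heavy chains was 3.67 and 5.19 FPKM in surgery and 0.608 and 1.40 FPKM in control. The ratio of the kappa chain to these heavy chains was 3.81 and 4.34 in surgery and 4.02 and 4.04 in control, while the FPKM of Igkc itself differed between libraries by a factor of up to 9.22. No interval is given for this ratio, which in control replicate 1 rested on 25 Igkc counts and 24 heavy chain counts. The ratio of Ighm to the same heavy chains was 3.50 and 1.57 in surgery and 15.1 and 6.69 in control. These shares and ratios were examined after the values were seen and come from the same counts as the members.

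**Figure D2:**
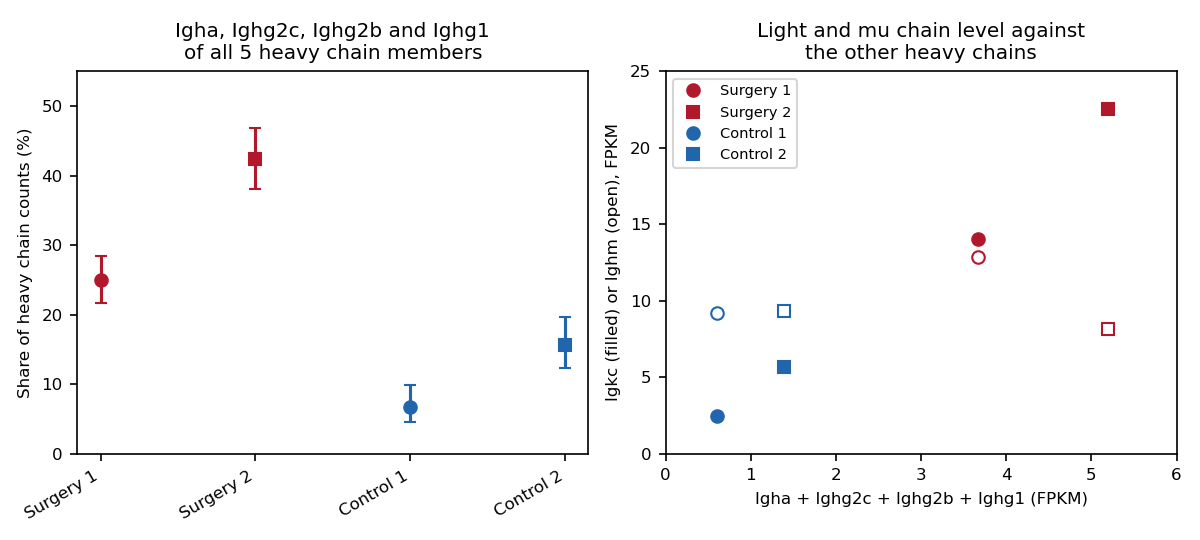
Left, percent of heavy chain counts taken by Igha, Ighg2c, Ighg2b and Ighg1 in each library, with Wilson 95% intervals. Right, FPKM of Igkc (filled symbols) and of Ighm (open symbols) against the summed FPKM of those 4 heavy chain genes, where Igkc climbed with them at a ratio between 3.81 and 4.34 and Ighm did not. In control replicate 1 the Igkc ratio rested on 25 Igkc counts and 24 heavy chain counts.

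The variable segments were not used to choose the members and were read from the same gene table. They are parts of the same antibody transcripts as the constant genes in the same 4 libraries. Their counts are therefore not independent of the members and are given as a description. Each B cell clone carries 1 rearranged heavy and usually 1 rearranged light chain. A segment count names the variable segment used, but not the whole rearrangement or which heavy and light chains were paired. The table held 101 variable and joining segments, of which 89 had at least 1 count. Their sum was 128 and 128 counts in the surgery libraries, against 19 and 50 in control, or 6.89 ± 0.338 CPM in surgery and 1.86 ± 1.20 CPM in control (SD, n = 2 each). This is 3.71-fold, and 2.55-fold against control replicate 2 alone. With 2 libraries per group an exact two-sided permutation test cannot give a p below 0.333, and none of the segments passed the filter on low counts for a test across genes. Heavy chain segments (Ighv) had 53 and 53 counts in surgery and 11 and 10 in control, and kappa segments (Igkv) had 72 and 67 in surgery and 8 and 38 in control. In control replicate 2 the kappa segments were thus closer to the surgery libraries than the heavy chain segments were.

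The surgery libraries drew on different segments. In surgery replicate 1, Ighv1-82 had 20 counts and Igkv12-46 had 18, and both had 0 in each of the other 3 libraries. Ighv1-82 made up 37.7% (Wilson 95% interval 25.9 to 51.2%) of the Ighv counts of that library and Igkv12-46 made up 25% (16.4 to 36.1%) of its Igkv counts. Ighv3-6 had 19 counts there, against 2 in surgery replicate 2 and 3 and 1 in control. In surgery replicate 2 the 53 Ighv counts fell on 25 segments, against 12 segments for the same total in surgery replicate 1. The Igkv counts fell on 25 segments in surgery replicate 2 and 23 in surgery replicate 1. Its leading segment Ighv9-3 had 9 counts, or 17.0% (9.20 to 29.2%), with 1 count in surgery replicate 1 and 1 and 0 in control. Ighv1-9 had 7 counts in surgery replicate 2 and 0 in the other libraries. A further kappa segment, in the fourth row of the plot of segment counts, had counts in both surgery libraries, 8 and 7, against 1 and 0 in control. In the controls no segment had more than 4 counts, which were those of Igkv6-15 in control replicate 1 and of Igkv3-4 in control replicate 2. Reads that carry somatic mutations or that fit several segments may have been placed on another segment or lost.

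The segments that led in only 1 surgery library are shown by the last 120 bases of their germline coding sequence, 5′ to 3′ from GENCODE vM21 on GRCm38. The last cysteine codon, which ends the framework before the third hypervariable region, is in capitals. Ighv1-82 lies on the minus strand of chromosome 12 from 115952538 to 115953005, Ighv9-3 on the same strand from 114140692 to 114141122, and Igkv12-46 on the minus strand of chromosome 6 from 69764523 to 69765022.
Ighv1-82: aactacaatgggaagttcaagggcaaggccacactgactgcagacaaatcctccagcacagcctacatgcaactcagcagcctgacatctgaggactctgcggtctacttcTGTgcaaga
Ighv9-3: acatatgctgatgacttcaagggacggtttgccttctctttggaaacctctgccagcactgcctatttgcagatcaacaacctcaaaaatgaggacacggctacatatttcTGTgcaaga
Igkv12-46: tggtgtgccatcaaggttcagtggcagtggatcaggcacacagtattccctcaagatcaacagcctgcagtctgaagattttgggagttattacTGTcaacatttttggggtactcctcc
Both heavy chain segments end with the same 6 bases after the cysteine codon, whereas the kappa segment goes on for 23 bases.

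**Figure D3:**
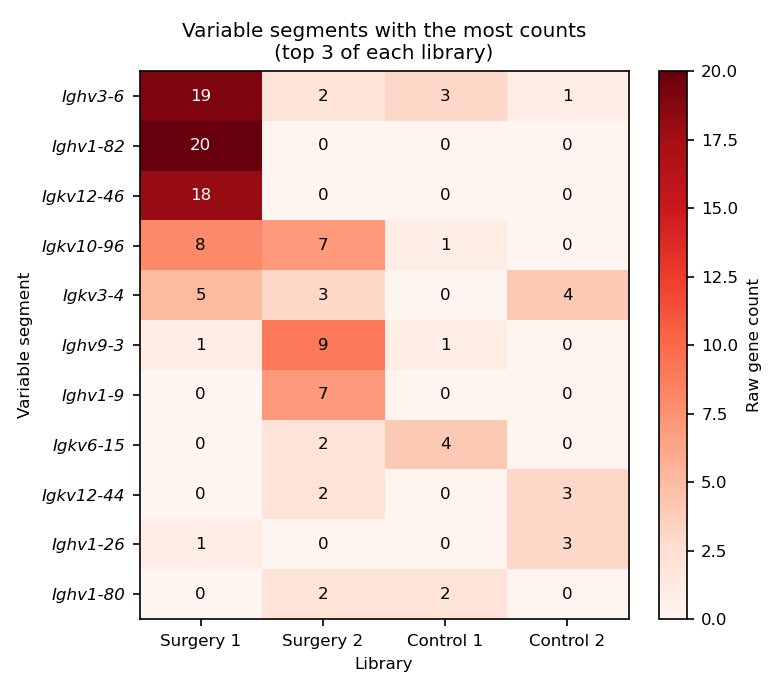
Raw counts of the 11 variable segments that were among the 3 with the most counts in any library (rows), by library (columns, surgery left), with ties taken in alphabetical order. Ighv1-82 and Igkv12-46 had 20 and 18 counts in surgery replicate 1 and 0 elsewhere, and no control value was above 4.

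Other constant genes had few counts. Iglc1, a lambda light chain gene, had 1 and 10 counts in surgery and 0 and 4 in control, Iglc2 had 1 and 2 in surgery and 0 and 0 in control, and Iglc3 had none. The lambda genes thus made up 1.37% and 5.22% of the light chain counts in surgery. In control they made up 0 of 25 counts, for which the interval reaches 13.3%, and 6.90%. Ighd, the delta chain made beside the mu chain by naive B cells, had 3 and 5 counts in surgery and 16 and 3 in control. None of these genes passed the filter on low counts.

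The genes that define B cells and plasma cells had few counts in all 4 libraries. Cd79a and Cd79b encode the signalling partners of the B cell receptor. Cd79a had 3 and 5 counts in surgery and 3 and 7 in control, and Cd79b had 5 and 6 in surgery and 2 and 2 in control. Ms4a1, which encodes CD20, had 1 and 0 counts in surgery and 1 and 0 in control. Of the plasma cell genes, Mzb1, a chaperone for antibody assembly, had 7 and 2 counts in surgery and 5 and 9 in control. Tnfrsf17, the survival receptor BCMA, had 3 and 4 in surgery and 4 and 3 in control, and Pou2af1 had 1 and 1 in surgery and 4 and 2 in control. At these counts a difference between the groups was not detectable. The plasma cell list, with 10 of 11 genes in the table and no more than 39 counts for any of them in a library, summed to 5.14 and 6.57 CPM in surgery and 6.79 and 7.24 CPM in control. None of its genes was at 0 in all libraries, and Slamf7 came closest with 1 count in total.

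Across all genes, surgery was set against control with edgeR's quasi-likelihood test, in which 0 of 17236 genes (0%) passed at an adjusted p under 0.05. DESeq2 called 68. Without adjustment, 1717 genes had a p under 0.05 in edgeR, with 4.33% of the genes higher and 5.63% lower, and the median log2 fold change was 0.00053. Of the B cell list, 10 of 23 genes in the table were tested. At either threshold 0 of them passed, and their median log2 fold change was 0.092. Those with the smallest p were Fcer2a (-0.80, SE 0.47), the low-affinity IgE receptor, Cd180 (0.63, SE 0.31), a toll-like receptor relative that microglia express as well, Tnfrsf13b (0.43, SE 0.40) and Cd37 (0.16, SE 0.25). The adjusted p ran from 0.529 to 0.864 over these 4 genes. Of the plasma cell list 5 genes were tested and 0 passed at either threshold, with a median of -0.24. Sdc1, which encodes CD138, had 8 and 22 counts in surgery and 11 and 26 in control, which edgeR put at -0.28 on the log2 scale (SE 0.62, adjusted p = 0.905). Prdm1, the regulator of plasma cell identity, stood at 0.61 (SE 0.50), Jsrp1 at -0.56 (SE 0.37) and Eaf2 at -0.24 (SE 0.49).

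The secretory machinery that plasma cells use in large amounts is also present in neurons and glia. Of its 10 genes tested, 0 passed at an adjusted p under 0.05, while without adjustment 3 were higher and 0 lower at 0.05. The median log2 fold change was 0.19. Xbp1, the transcription factor of the secretory programme, stood at 74.7 and 75.6 CPM in surgery and 53.9 and 61.7 CPM in control, which edgeR put at 0.38 on the log2 scale (SE 0.12, adjusted p = 0.396). The chaperones Hspa5 (0.66, SE 0.13) and Hsp90b1 (0.41, SE 0.12) were the others. Over all 4 libraries, Hspa5 passed the adjusted threshold with DESeq2 (adjusted p = 0.000682), with edgeR without the filter on low counts (5.24e-05) and with edgeR and the replicate block (0.0441). Hspa5 did not pass with edgeR in the main fit (adjusted p = 0.247), with RLE factors (0.271) or with at least 10 counts in each library (0.179). Nor did it pass with limma-voom (0.214) or limma-trend (0.507 and 0.529). With 1 library left out its log2 fold change ran from 0.55 without control replicate 1 to 0.78 without control replicate 2. Txndc5, a disulphide isomerase, stood at -0.24 (SE 0.13). Xbp1, Hspa5 and Hsp90b1 had between 1016 and 4969 counts per library.

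Receptors and transporters of antibodies were tested for 7 of 12 genes in the table, of which 0 passed the adjusted threshold. B2m, the light subunit of the neonatal Fc receptor and of MHC class I, was the only 1 of the 7 with an unadjusted p under 0.05, at 91.1 and 92.2 CPM in surgery and 75.0 and 72.5 CPM in control (log2 fold change 0.31, SE 0.11, adjusted p = 0.420 from edgeR). The Fc gamma receptors Fcgr2b and Fcgr1 stood at 0.54 (SE 0.32) and 0.21 (SE 0.34), and Fcer1g, the signalling subunit of Fcgr1, at 0.10 (SE 0.21). The median of the 7 genes was 0.10. Pigr, the receptor that carries polymeric IgA and IgM across epithelia, did not pass the filter on low counts. It had 23 and 2 counts in surgery and 1 and 2 in control, so that only surgery replicate 1 stood out, the library with the most Jchain and Ighm. Of the niche and survival factors of B cells and plasma cells, 4 of 11 were tested. Tnfsf13b, which encodes BAFF, had 26 and 23 counts in surgery and 50 and 38 in control (log2 fold change -0.84, SE 0.36, adjusted p = 0.480 from edgeR). Icosl, a ligand for T cell help, stood at -0.43 (SE 0.17), and these were the 2 genes of the list at an unadjusted p under 0.05, both lower. Cxcl12 stood at 0.17 (SE 0.12) and its receptor Cxcr4 at 0.02 (SE 0.30).

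Markers of blood and of tissues next to the hippocampus are set beside the members. The 10 markers of hippocampal neurons summed to between 7562 and 8892 CPM in each library. Some of these markers are general neuronal genes, so the sum does not by itself settle the region. The red blood cell list summed to 50.1 and 63.0 CPM in surgery and 49.3 and 110 CPM in control, so that the highest value was in control replicate 2. All 16 genes of the choroid plexus list were tested and had a log2 fold change above 0, with a median of 0.87. Of them 0 were called and 2 were higher without adjustment. The list summed to 3850 and 4807 CPM in surgery and 61.6 and 3745 CPM in control. Control replicate 1 thus stood apart with little choroid plexus RNA, and it also had the lowest value of Igkc, Igha, Jchain, Ighg2c and Ighg2b. In the summed list control replicate 2 was near surgery replicate 1, but most of that sum was Ttr, at 3374 and 4245 CPM in surgery and 19.85 and 3231 CPM in control. Single genes went both ways when set against control replicate 2. Sostdc1 stood at 32.7 and 29.7 CPM in surgery against 19.4 CPM in control replicate 2, and Clic6 at 44.0 and 55.6 CPM against 63.3 CPM. Against control replicate 2 alone the surgery means of Igkc, Igha, Jchain, Ighg2c and Ighg2b were between 2.11-fold and 4.88-fold higher. The meningeal fibroblast list of 15 genes summed to 206 and 298 CPM in surgery and 103 and 266 CPM in control. All 15 genes of this list were tested and had a log2 fold change above 0, with a median of 0.40. Of them 0 were called and 2 were higher without adjustment. Among its genes Ogn, a proteoglycan, had 380 and 366 counts in surgery and 71 and 184 in control (1.55 on the log2 scale, SE 0.33, adjusted p = 0.309 from edgeR). Ogn passed the threshold in edgeR without the filter on low counts (adjusted p = 5.61e-11). It did not pass in edgeR with RLE factors (0.341) or the replicate block (0.0526), nor with limma-voom (0.173). With 1 library left out its log2 fold change ran from 1.01 without control replicate 1 to 2.42 without control replicate 2. How far the members' difference came with these tissues was not tested. GC content of the members' transcripts ran from 38.2% to 53.8%, and the 11953 other tested genes in that range had a median log2 fold change of 0.052.

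**Figure D4:**
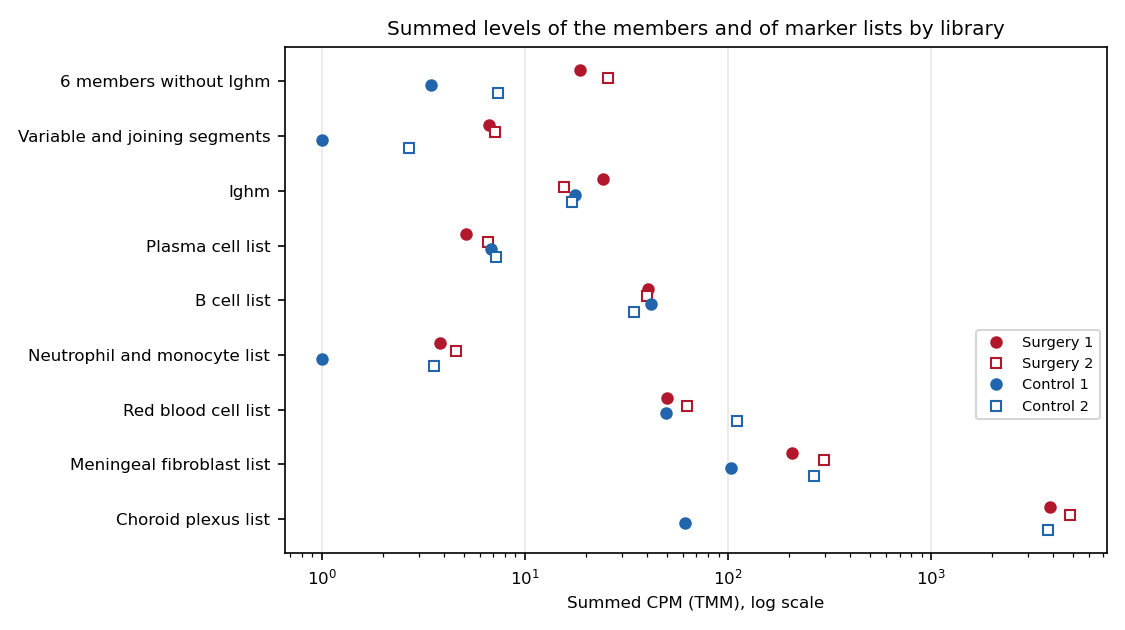
Summed CPM (horizontal axis, log scale, TMM-scaled) of the 6 members without Ighm, of the variable and joining segments, of Ighm and of 6 marker lists, with surgery libraries in red and control libraries in blue, replicate 1 filled and replicate 2 open. The plasma cell and B cell lists lay close together in the 4 libraries, at 5.14 to 7.24 and 34.6 to 41.6 CPM, whereas the choroid plexus list was at 61.6 CPM in control replicate 1 and between 3745 and 4807 CPM in the others.

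Genes with the most similar profile were sought by the share of their CPM in each library, as the Euclidean distance to the profile of the summed members over the 4 libraries, among 16443 other genes with at least 50 counts. The nearest were Agtr2, Napsa, Ldha-ps2, Opn3 and Gpc2, at distances from 0.0155 to 0.0279 and with 8 to 32 counts per library. With so many genes and only 4 libraries such likeness is a description. After Ighm was taken out of the sum, a step chosen after the values were seen, the nearest gene was Slc28a3, a nucleoside transporter, with 29 and 35 counts in surgery and 3 and 14 in control. The fifth was Slc26a7, an anion transporter, with 57 and 78 counts in surgery and 4 and 39 in control.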

How the data were processed

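Total RNA of the hippocampus was sequenced in 2 surgery and 2 control libraries. The authors mapped reads with HISAT2 to mm10, and HTSeq (5.4.2 in the submitters' processing notes) gave the deposited raw counts of genes. The annotation release and strand setting are not given in the sources used here. Per-gene FPKM values, also deposited, are these counts over a length per gene and the column total. The authors also deposited estimated counts and FPKM values per transcript, for which no tool is named, and their 103309 transcripts include 15398 models with no symbol. The gene counts of a library summed to between 18002695 and 19318085.

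The members and gene lists were chosen with earlier results of these data known. Members were described by raw counts, TMM-scaled CPM and exact Poisson intervals. A count of 0 was read as up to 3 counts. The test over all genes was the quasi-likelihood test of edgeR 4.0.16 under R 4.3.3, with TMM factors and filterByExpr (10 counts, 15 in total), with Benjamini-Hochberg adjustment at 0.05. DESeq2 1.42.0, limma 3.58.1 (voom, and trend on log2 FPKM), RLE factors, other count filters, a replicate block and leaving out each library were alternatives. Named besides the members are genes among the up to 4 of smallest p in their list, and some B cell and plasma cell genes too low to be tested. The blood and tissue lists are represented by only some of theirs, and the T cell, hippocampal neuron and microglia lists by none. The microglia list of 9 genes, all tested, had 0 called and 1 lower without adjustment. Also named are segments among the 3 with the most counts in each library, and the 5 genes nearest in profile. The sum without Ighm was added after seeing the data. Ccr2 and other genes of the closing part follow the same rule, except S100a9, Ltf and Camp. Iglc genes, Ighd, Pigr, Ttr, Sostdc1, Clic6, Slc28a3, Slc26a7, S100a9, Ltf and Camp were named after their values were seen. GENCODE vM21 on GRCm38 gave sequences and GC content.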

Additional observations from a re-analysis of the deposited data

How the results depend on the processing

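Among the members, Ighg2c, Ighg2b, Igha and Jchain had a positive log2 ratio in every scaling, table and left-out library tried, from 0.74 to 3.36. For Igha the positive ratio in the transcript table came from surgery replicate 2 alone, with 25 and 377 estimated counts in surgery against 44 and 40 in control. Igkc stood at -0.11 in the transcript table and from 1.75 to 2.89 with 1 library left out. No ratio is given for Ighg1. Ighm ran from -0.16 to 1.39. The log2 ratio of the 7 summed members (0.89) was 1.22 in FPKM, 1.51 in the transcript table and 0.79 to 1.0 with 1 library left out, and that of the 6 without Ighm (2.04) was 1.60 to 2.69. The cause of the difference between the gene and transcript tables was not tested.

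The number of genes called over all genes, 0 with edgeR, was 68 with DESeq2, 395 with no filter on low counts, 1 with at least 10 counts in each library, 39 with the replicate block and 51 (without control replicate 1) to 734 (without surgery replicate 2) with 1 library left out, 264 without control replicate 2 and 109 without surgery replicate 1, where the lone library is assumed to vary like the other group. Limma-voom called 0, with 1817 genes at an unadjusted p under 0.05. The replicate numbers are not said to mark a shared animal or batch, and the deviations of same-numbered libraries correlated at 0.165 over the tested genes. Of the related genes outside the members (other constant genes, B cells, plasma cells, antibody receptors) 0 were called in each fit except without surgery replicate 2, where 1 was, Pigr. With 1 library left out the log2 fold change ran from -0.047 to 0.41 for Cd37, from -1.24 to 0.48 for Sdc1, from -0.59 to 0.22 for Eaf2, from -0.079 to 0.52 for Fcgr1, from -0.046 to 0.24 for Fcer1g, from -0.0012 to 0.048 for Cxcr4 and from -1.21 to 0.074 for Hbb-bs. Of 258 other values of 23 named genes, 235 kept direction and call, 9 turned and 14 passed where edgeR with all libraries did not, all 14 in Hspa5, Ogn or Hbb-bs. Hbb-bs passed without control replicate 1, without surgery replicate 2 and with no filter on low counts.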

Other observations

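Other blood leukocyte genes were also scarce. Ccr2, the receptor of inflammatory monocytes, had 12 and 14 counts in the surgery libraries, against 2 and 3 in control (log2 fold change 2.33, SE 0.74, adjusted p = 0.406 from edgeR), and was the only 1 of 4 tested genes of the neutrophil and monocyte list with an unadjusted p under 0.05. The neutrophil genes S100a8 and Lcn2 had 19 and 8 and 14 and 20 counts in surgery, against 1 and 14 and 2 and 14 in control. For these genes control replicate 1 was low while control replicate 2 lay with the surgery libraries. Ngp was alike, with 5 and 16 counts in surgery and 0 and 15 in control. Other neutrophil genes did not share this pattern. S100a9 had 7 and 17 counts in surgery and 9 and 6 in control. Ltf had 6 and 3 in surgery and 3 and 9 in control, and Camp 4 and 2 in surgery and 2 and 3 in control. That list summed to 3.85 and 4.57 CPM in surgery and 1.01 and 3.57 CPM in control. The T cell and NK cell list summed to 3.43 and 4.40 CPM in surgery and 4.67 and 3.73 CPM in control, which overlapped, and 0 of its 3 tested genes passed at either threshold. The beta globin Hbb-bs was at 23.7 and 28.0 CPM in surgery and 24.7 and 60.0 CPM in control (log2 fold change -0.71, SE 0.31, adjusted p = 0.485 from edgeR), with control replicate 2 alone standing high.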
